A study of Mus musculus with 4 samples.

Results

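The glucose transporters Slc2a1 and Slc2a3 and 8 enzymes of glycolysis (Hk2, Pfkp, Aldoa, Gapdh, Pgk1, Eno1, Pkm and Ldha) were followed in single CD45+ immune cells of the mouse liver. These 10 genes were chosen by symbol from a written list and are 10 of the 32285 gene rows of each matrix. They were chosen with earlier results of these data known. Transcripts were counted with 10x Genomics 5′ single-cell RNA sequencing, in which a unique molecular identifier (UMI) marks each captured transcript. The 4 libraries came from female C57BL/6 mice. They were WT mice of 8 weeks with no treatment (young WT), and WT, miR-146a-/- and miR-146a-/- Ccl5-/- (DKO) mice of 36 weeks. The 3 older groups received the liver carcinogen diethylnitrosamine (DEN) at 25 mg/kg on day 14, were weaned on day 21 and then ate a high-fat diet without choline (CDHFD). Each group was 1 library, and how many mice went into a library is not given in the sources used here.

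Glucose enters leukocytes through facilitative transporters, is trapped in the cell by hexokinase, is committed to glycolysis by phosphofructokinase, and is then split and oxidized to pyruvate. Lactate dehydrogenase turns pyruvate into lactate and returns the NAD+ that the Gapdh step uses. Activated T cells and inflammatory monocytes are known for a high glycolytic rate, and transcript levels do not measure that rate.

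The matrices held 10985 cells and 90756272 UMIs for young WT, 9120 cells and 103165826 UMIs for DEN-CDHFD WT, 8393 cells and 88706063 UMIs for miR-146a-/-, and 10623 cells and 103147246 UMIs for DKO. All values below follow this order of libraries. Of 39121 cells, 36286 had 600 to 6000 detected genes and at most 5% mitochondrial UMIs and were kept, with a median of 6782, 8210, 7910 and 7558 UMIs. Any 2 libraries shared 96 to 127 cell barcodes, which was 1.04% to 1.52% of the kept cells of a library. Ccl5, the gene deleted in DKO mice, had 6174, 12544, 12496 and 65.4 CPM (counts of UMIs scaled to 1e6 UMIs of all genes) in the kept cells, so the DKO library was the low one. The matrices have no row for miR-146a.

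Cells were placed in 19 classes by UMIs of lineage markers, none of them a glycolysis gene of the list, and 23131 cells passed exactly 1 gate. A further 532 cells passed more than 1 gate and 12623 passed none, and both were left out. Marker sums of the lineages were then compared between gates. The T-cell markers summed to 5639, 6958, 7248 and 6699 CPM in PD-1+ CD8 T cells and to 20.2, 17.7, 13.3 and 10.0 CPM in NK cells, and the B-cell markers to 5892, 6282, 6829.5 and 6044 CPM in B cells. The classical monocyte gate held only 15, 43, 37 and 56 cells, fewer in each library than the other 5 classes in which genes were counted by condition.

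Markers of cells outside the gates were summed in the same way over 8 of the classes. Hepatocyte genes reached at most 124 CPM, platelet genes at most 15.4 CPM, endothelial genes at most 141, 133, 300.4 and 293 CPM in the 4 libraries and neutrophil genes at most 40.5, 34.8, 412 and 340.0 CPM. The last 2 lists thus had larger maxima in the knockout libraries. Erythroid genes were uneven, with 2704 CPM in patrolling monocytes of DEN-CDHFD WT and 2.38, 2.81 and 3.81 CPM in the other libraries, and with 1.24, 668, 2.06 and 1664 CPM in naive-like CD8 T cells. All 8 genes of the dissociation stress list (Fos, Jun, Junb, Egr1, Dusp1, Hspa1a, Hspa1b and Atf3) were detected in each of these classes, and their sum separated the libraries. It was 7127.5, 5831, 2729 and 3151 CPM in all kept cells, with Junb the most abundant gene at 2888, 2217, 1200.5 and 1206 CPM. Within each class both knockout libraries were below both WT libraries, so it moved with genotype, and its part in the differences between genotypes was not tested.

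The miR-146a seed and its match are shown because the knockout removes this miRNA. In the mature sequence and in the match (GENCODE M21 annotation, GRCm38), the seed bases or their complement are in capitals. RefSeq (GRCm38.p6) places mature miR-146a-5p at chr11:43374435-43374456 on the minus strand.
miR-146a-5p: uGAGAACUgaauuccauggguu
Hk2 3′ UTR: atttgtttcaAGTTCTCactgcataga
A match to bases 2 to 8 was found in the annotated 3′ UTRs of 2453 of 20957 genes (11.7%) and of 1 of the 10 listed genes, Hk2, at chr6:82726213-82726219 on the minus strand. A match of this length is a description and not a measured site.

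Hypoxia-inducible factors and MYC bind DNA words that contain ACGTG, so this word was searched on both strands in RefSeq promoters (GRCm38.p6) of 300 bases around each annotated start. CACGT is its reverse complement, and CACGTG reads as the word on both strands at overlapping positions. It was present at 6447 of 32851 starts (19.6%) and in 5886 of 27025 genes (21.8%). Entries were held for 9 of the listed genes with 15 starts, and 8 starts of 7 genes had the word. The starts of Pfkp and Eno1 did not. One window of each gene with a match follows, on the strand of the gene with the word in capitals. Of these windows only that of Ldha holds CACGTG.
Slc2a1 at -36 from the start: cccgccccggACGTGctccccaggc
Hk2 at -52: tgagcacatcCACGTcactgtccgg
Aldoa at -126: tggctcgagtCACGTcctagcgggg
Gapdh at 43: tttacgggtgCACGTagc
Pgk1 at -150: gtcgtgcaggACGTGacaaatggaa
Pkm at -75: ccgatccggtCACGTccgcgccgca
Ldha at -48: gcccagcctaCACGTgggttcccgc
They lie at chr4:119108699-119108723 (Slc2a1), chr6:82774492-82774516 (Hk2), chr7:126799366-126799390 (Aldoa), chr6:125165724-125165741 (Gapdh), chrX:106186940-106186964 (Pgk1), chr9:59657142-59657166 (Pkm) and chr7:46845746-46845770 (Ldha). The other start of Pkm and of Ldha, and 1 of 3 starts of Aldoa, had no match, and these words say nothing about binding in these cells.

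In GRCm38 the transporter genes lie at chr4:119108711-119137983 (Slc2a1, ENSMUSG00000028645, plus strand) and chr6:122727809-122801640 (Slc2a3, ENSMUSG00000003153, minus strand). Hk2 (ENSMUSG00000000628) spans chr6:82725025-82774454 and Pfkp (ENSMUSG00000021196) chr13:6579768-6648777, both on the minus strand. Aldoa (ENSMUSG00000030695) is at chr7:126795234-126800751 and Gapdh (ENSMUSG00000057666) at chr6:125161715-125166467, also on the minus strand. Pgk1 (ENSMUSG00000062070, chrX:106187100-106203699), Eno1 (ENSMUSG00000063524, chr4:150236721-150248879), Pkm (ENSMUSG00000032294, chr9:59656368-59679375) and Ldha (ENSMUSG00000063229, chr7:46841475-46855627) are on the plus strand. Eno1 shares sequence with Eno1b, whose row had 11.6, 14.1, 13.6 and 14.5 CPM in all kept cells, so a small part of either count may belong to the other. A second row named Aldoa had at most 4.13 CPM in a class.

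Levels by class were taken as CPM of the summed cells of a class, in libraries with at least 50 cells of it. Their exact 95% Poisson intervals, and the exact binomial intervals of shares, cover counting error only. Each gene was compared with itself across the 17 classes and not with another gene. The order of classes was coarse for every gene, since the range over libraries overlapped between 13 to 16 of the 16 pairs of neighbouring classes.

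**Figure D1:**
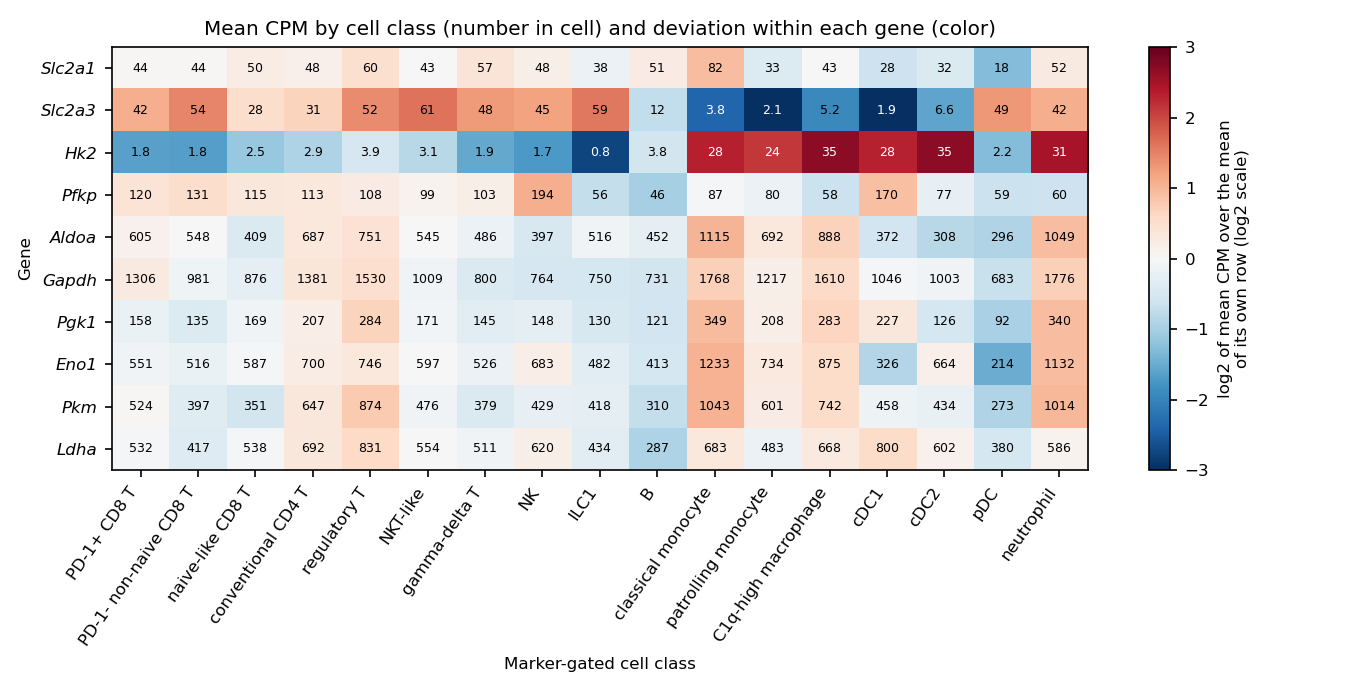
Mean CPM over libraries of each gene (vertical axis) in each cell class with at least 50 cells in a library (horizontal axis), printed in the cells, with color for the log2 deviation from the gene's own mean over classes. Slc2a3 and Hk2 are high in mostly different classes, Slc2a3 mainly in lymphoid and Hk2 in myeloid classes. The neutrophil gate is high for both.

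Slc2a3, a transporter with high affinity for glucose, split the lymphoid from most of the myeloid classes. Its mean level was 61.0 CPM in NKT-like cells (46.8 to 70.0 over libraries), 58.9 CPM in ILC1 (52.5 to 73.8) and 54.2 CPM in PD-1- non-naive CD8 T cells (41.1 to 66.0). It was below 7 CPM only in classes of monocytes, macrophages and conventional dendritic cells, with 2.05 CPM in patrolling monocytes (1.38 to 2.81) and 1.93 CPM in cDC1 (1.06 to 3.76), while pDC (48.9 CPM) and the neutrophil gate (42.1 CPM) lay with the lymphoid classes. B cells, at 11.8 CPM (8.20 to 15.6), overlapped no neighbour in the order. With each cell thinned to 2000 UMIs, Slc2a3 was detected in 12.4%, 10.4%, 7.72% and 8.37% of ILC1 and in 0%, 0%, 0% and 0.104% of patrolling monocytes (1 of 958 DKO cells). Without thinning these shares were 31.6%, 29.6%, 31.7% and 29.2% against 1.96%, 1.28%, 1.53% and 1.03%, at median depths of 6509, 8084, 7696.5 and 7367 UMIs in ILC1 and 7084, 8901.5, 6693 and 5675 UMIs in patrolling monocytes.

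Slc2a1, the basal glucose transporter of most cells, varied less, by 4.68-fold from the highest to the lowest class against 31.6-fold for Slc2a3. Regulatory T cells had 60.5 CPM (46.1 to 68.4 in 3 libraries) and B cells 51.4 CPM (42.0 to 59.4). The lowest class was pDC at 17.5 CPM (14.0 to 22.6). The highest class was classical monocytes at 82.0 CPM, a value from the DKO library alone, so the 4.68-fold rests on it. The ranges of 15 of the 16 pairs of neighbouring classes overlapped.

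Hk2, an inducible hexokinase that binds mitochondria, was found mainly in myeloid classes. It had 35.3 CPM in cDC2 (25.5 to 42.8), 35.2 CPM in C1q-high macrophages (32.6 to 37.0), 27.5 CPM in cDC1 (20.2 to 35.9), 30.6 CPM in the neutrophil gate, which was also high for Slc2a3, and 24.0 CPM in patrolling monocytes (17.5 to 31.0). Every lymphoid class and pDC had at most 3.87 CPM in the mean, down to 1.67 CPM in NK cells (0.972 to 2.65) and 0.815 CPM in ILC1 (0.251 to 1.19). In thinned cells Hk2 was found in 12.1%, 7.89%, 5.95% and 7.33% of C1q-high macrophages (in young WT 4 of 33 cells, 3.40% to 28.2%) and in 0.142%, 0%, 0% and 0.220% of NK cells. Before thinning these were 24.3%, 32.2%, 30.7% and 28.1% against 0.707%, 2.31%, 1.00% and 1.97%, and NK cells had median depths of 6729, 8431, 9669 and 8523.5 UMIs.

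Pfkp, the platelet-type phosphofructokinase, was highest in NK cells at 194 CPM (185 to 207) and cDC1 at 170.0 CPM (144 to 195), whose ranges overlapped. T-cell classes lay between 98.6 CPM in NKT-like and 131 CPM in PD-1- non-naive CD8 T cells. The lowest values were 55.7 CPM in ILC1 (49.7 to 62.1) and 46.1 CPM in B cells (35.8 to 58.3). Thus NK cells and ILC1, which share many receptors, stood far apart for Pfkp in all 4 libraries. In thinned cells it was detected in 31.8%, 30.3%, 30.0% and 34.1% of NK cells and in 10.2%, 9.52%, 10.3% and 9.51% of ILC1, and the exact 95% intervals of young WT, 28.3% to 35.4% and 7.46% to 13.6%, did not overlap. Without thinning the shares were 68.9%, 74.6%, 74.9% and 74.7% against 27.3%, 34.8%, 38.8% and 27.3%.

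**Figure D2:**
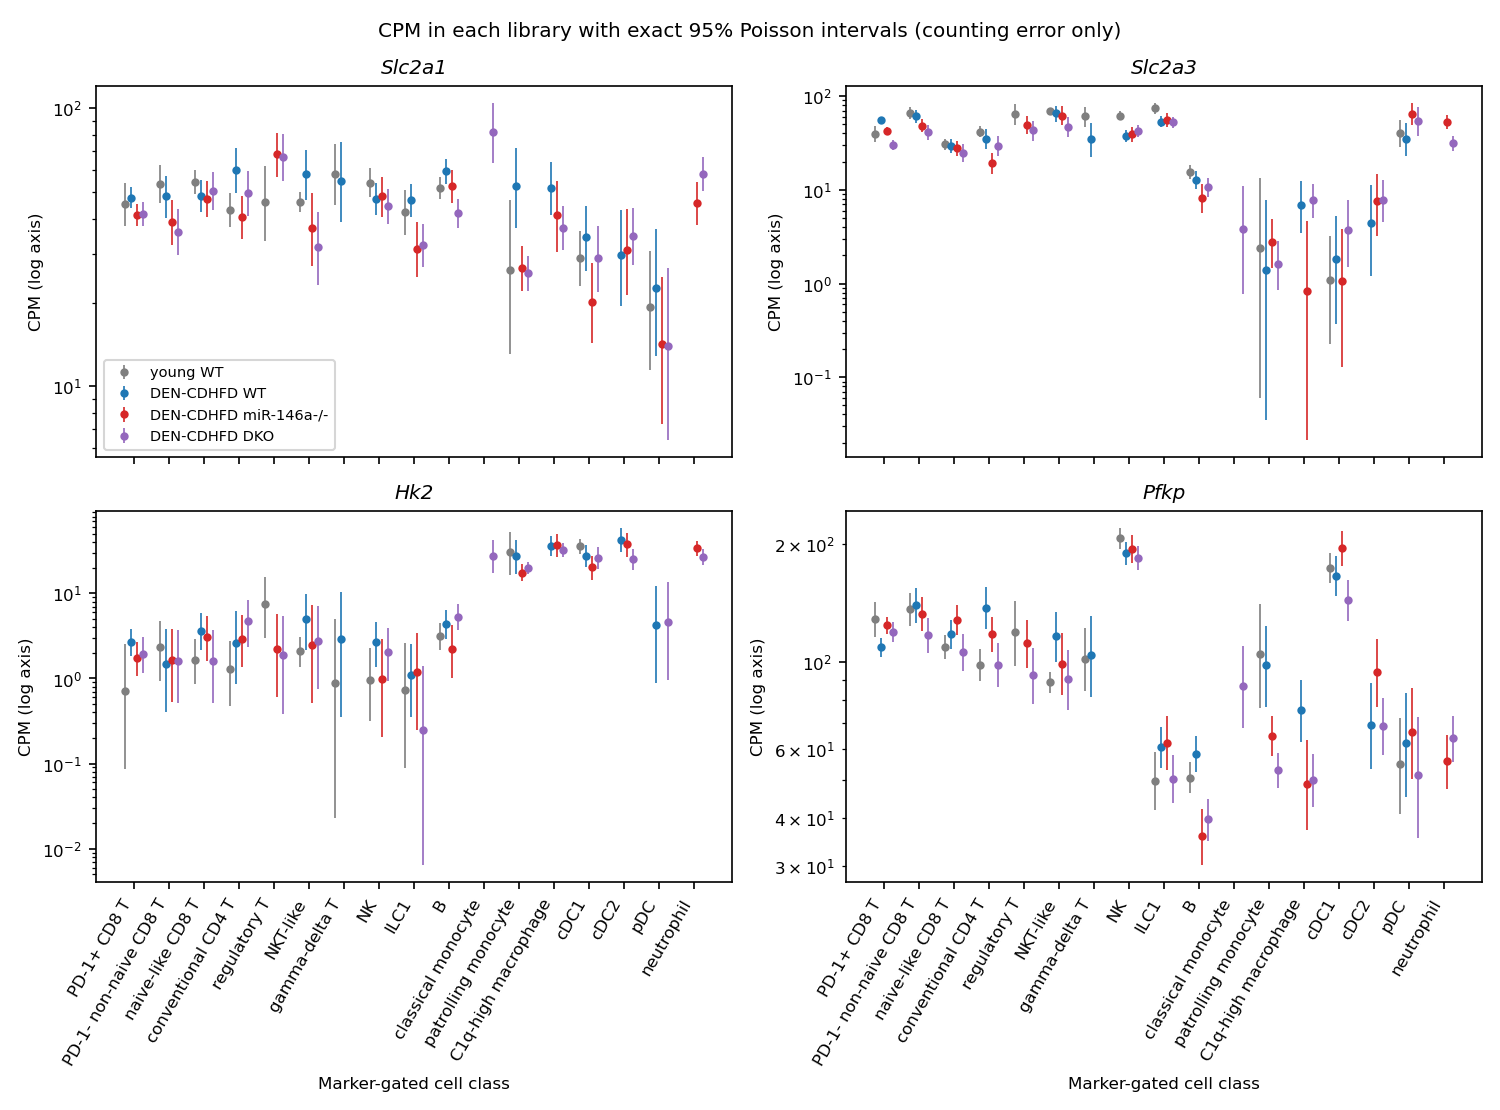
CPM on a log axis (vertical) of Slc2a1, Slc2a3, Hk2 and Pfkp in each cell class (horizontal), 1 point per library with its exact 95% Poisson interval. Pfkp is near 200 CPM in NK cells and near 50 CPM in ILC1 of each library, and Hk2 separates most myeloid from lymphoid classes.

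The enzymes of the lower pathway shared the classes at both ends of their order, and the classes between were ordered differently. Aldoa (fructose bisphosphate aldolase), Pgk1 (the first ATP-forming step), Eno1 (enolase) and Pkm (pyruvate kinase) had their largest class means in the classical monocyte and neutrophil gates, which rest on 1 and 2 libraries, and Gapdh (glyceraldehyde phosphate dehydrogenase) in the same gates in the other order. Among classes with 3 libraries or more, C1q-high macrophages or regulatory T cells led each of these genes. Eno1 had 875 CPM in C1q-high macrophages (777 to 964) and 214 CPM in pDC (155 to 272). Gapdh had 1610.4 CPM in C1q-high macrophages (1319 to 1891), 1529.8 CPM in regulatory T cells (1345 to 1831) and 683 CPM in pDC (621 to 834), and each of its 16 neighbouring pairs overlapped. For Pkm the same classes had 742, 874 and 273 CPM. pDC had the smallest mean for Aldoa (296 CPM), Gapdh, Pgk1 (91.7 CPM), Eno1 and Pkm. The neutrophil gate may also hold Csf3r+ monocytes, which was not tested. Its median depth was 4127, 12937, 18445 and 18457 UMIs, against 3887.5, 4122, 17387 and 17655 UMIs without Csf3r in its marker sum.

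Ldha, the M subunit of lactate dehydrogenase, was ordered otherwise. It was highest in regulatory T cells at 831 CPM (712 to 951) and cDC1 at 800.3 CPM (648 to 964), and lowest in B cells at 287 CPM (264 to 338). cDC1 thus stood near the top for Ldha and next to the bottom for Eno1, at 326 CPM (213 to 389). Both statements hold each gene against its own order of classes.

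Pairs of classes were then tested with edgeR's quasi-likelihood test on summed UMIs, with library as a block, over all genes with a mean of at least 10 CPM, and p-values were adjusted by Benjamini-Hochberg over those genes. The libraries are 4 conditions, so these p-values measure the spread of a class difference over 4 libraries and not over mice of 1 condition. Libraries in which a gene was higher are counted by CPM. A log2 fold change of edgeR is scaled by TMM factors, which centre most genes near 0.

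The first pair asked whether CD8 T cells with the exhaustion and activation receptor PD-1 differ from naive-like ones, whose gate rests on markers that central memory cells share. Of 9 tested members, 4 were higher and 4 lower in PD-1+ cells, where 19.7% and 20.6% of 8104 genes were called. Gapdh had 1111, 1229, 1547 and 1339 CPM in PD-1+ cells and 801, 819.5, 1039.9 and 844 CPM in naive-like cells. It was higher by 0.40 on the log2 scale (SE 0.0550, edgeR adjusted p = 0.00132), in 4 of 4 libraries. Aldoa and Pkm were higher by 0.39 and 0.40 in 4 of 4 libraries, and the groups did not overlap for either gene. Slc2a3 was higher by 0.39 in 4 of 4 libraries (edgeR adjusted p = 0.0407), a call that ended without DEN-CDHFD WT, without miR-146a-/- or without DKO (edgeR adjusted p = 0.155, 0.127 and 0.0517).

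Slc2a1, Pgk1, Eno1 and Ldha were lower in PD-1+ cells by 0.36, 0.26, 0.26 and 0.19 on the log2 scale of TMM factors. By CPM they were above naive-like cells in 0, 1, 2 and 1 of 4 libraries. Ldha, for example, had 502, 595, 519 and 512 CPM in PD-1+ and 469, 640.1, 530.3 and 514 CPM in naive-like cells, so the classes overlapped. These 4 calls rest on the scaling. With total UMIs in place of TMM factors the median of all genes moved from 0.00 to 0.18, higher calls went from 48.8% to 76.0% of all calls, and edgeR called 0 members lower after adjustment and 1 at an unadjusted p under 0.05, while DESeq2 with its own factors called 4. Without DEN-CDHFD WT, miR-146a-/- or DKO, 1, 1 and 2 members were called lower. Pfkp did not pass the test at -0.12 (edgeR adjusted p = 0.23, above in 2 of 4 libraries). Naive-like cells were deeper, with median UMIs of 10062.5, 10602.5, 10609 and 10556 against 6749, 7034, 6762 and 5914, and cells thinned to 2000 UMIs gave 3 higher and 3 lower members.

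NK cells and ILC1 are the group 1 innate lymphocytes of the liver, and the pair asked whether they differ. In NK cells 5 of 9 members were higher and 2 lower, beside 21.5% and 21.2% of 8216 genes. Pfkp had 207, 190.0, 195 and 185 CPM in NK cells and 49.7, 60.5, 62.1 and 50.2 CPM in ILC1. It was higher by 1.87 on the log2 scale (SE 0.0841, edgeR adjusted p = 1.24e-07), in 4 of 4 libraries. Ldha and Eno1 followed at 0.58 and 0.57, also in 4 of 4 libraries and with no overlap between the classes. Eno1 had 624, 719.7, 718 and 672 CPM in NK cells and 416, 494, 539 and 479 CPM in ILC1.

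Slc2a1 (0.40) and Pgk1 (0.26) were higher in NK cells in 4 of 4 libraries, and Slc2a3 and Aldoa were lower by 0.31 each in 4 of 4. DESeq2 called 3 members higher and 1 lower, leaving out Slc2a1, Pgk1 and Slc2a3. Without DEN-CDHFD WT or without miR-146a-/- only Aldoa was called lower, and the calls of Pgk1 without DEN-CDHFD WT and of Slc2a1 without DKO ended. Gapdh (0.09) and Pkm (0.10) did not pass the edgeR test, with NK cells above in 3 of 4 libraries for each. With total UMIs, higher calls among all genes moved from 50.4% to 39.1% of calls.

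The pair of classical monocytes and PD-1+ CD8 T cells set a myeloid against a lymphoid class. Young WT, with 15 classical monocytes, was not used, which left 3 libraries. Of 10 members 8 were higher and 1 lower in monocytes, beside 25.9% and 24.1% of 8380 genes. Hk2 had 40.6, 18.6 and 27.8 CPM in the monocytes of DEN-CDHFD WT, miR-146a-/- and DKO and 2.69, 1.73 and 1.95 CPM in the T cells. It was higher by 3.93 (SE 0.405, edgeR adjusted p = 6.6e-05), in 3 of 3 libraries. Slc2a3 went the other way, at 5.80, 2.07 and 3.78 CPM against 54.9, 42.8 and 30.0 CPM, and was lower by 3.19 in 3 of 3 libraries (edgeR adjusted p = 0.000109). The monocyte values of Slc2a3 rest on few UMIs, 1 of them in miR-146a-/-.

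Eno1, Pgk1, Pkm, Aldoa, Slc2a1, Ldha and Gapdh were higher in monocytes by 1.21, 1.17, 0.96, 0.82, 0.74, 0.64 and 0.51, each in 3 of 3 libraries. Pfkp did not pass, at -0.17. With a wider monocyte gate of 76, 138, 201 and 269 cells, 8 members were again called higher and 1 lower. Thinned cells gave 5 higher, and total UMIs moved the median of all genes from -0.05 to -0.24 and higher calls from 51.8% to 39.9% of calls. Slc2a1 and Gapdh lost their calls without miR-146a-/- or without DKO. Stress genes summed to 9525, 5981 and 5084.5 CPM in these monocytes and 3459, 1917 and 2346 CPM in the T cells, and their part was not tested.

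Classical monocytes arrive from the marrow and patrolling monocytes survey the vessel wall. In the same 3 libraries 7 of 9 members were higher in classical monocytes and 0 lower, beside 9.64% and 10.6% of 7793 genes, and no member was lower at an unadjusted p under 0.05 by edgeR or DESeq2. Pgk1 had 286, 333 and 349 CPM in classical and 224, 208 and 203 CPM in patrolling monocytes, higher by 0.63 (SE 0.132, edgeR adjusted p = 0.00858) in 3 of 3 libraries. Pkm (0.67), Eno1 (0.59), Ldha (0.52), Aldoa (0.46) and Gapdh (0.44) were higher in 3 of 3 libraries and Slc2a1 (1.06) in 2 of 3. Hk2 (0.41) and Pfkp (0.45) did not pass.

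These monocyte calls are fragile. Without miR-146a-/- or without DKO, edgeR called 0 members higher, with 5 and 4 at an unadjusted p under 0.05, and without DEN-CDHFD WT it called 8. Calls over all genes changed as well, from 751 higher genes to 177 and 170 without these 2 libraries. DESeq2 called 4, strict gates left 1, thinned cells 3, and the wider gate 4 (Slc2a1, Hk2, Pgk1 and Ldha). The stress sum was 9525, 5981 and 5084.5 CPM in classical and 8183, 2895.5 and 3572.5 CPM in patrolling monocytes, and median depth 11257, 14205 and 15654 against 8901.5, 6693 and 5675 UMIs. The part of neither was tested.

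The last pair compared PD-1+ CD8 T cells by Mki67 and Top2a. At least 2 UMIs of these genes put a cell among the cycling cells, which were 39, 269, 110 and 156, beside 257, 776, 1152 and 913 non-cycling cells with 0 UMIs of them, and the other PD-1+ cells were in neither. In cycling cells 7 of 9 members were higher and 0 lower, beside 19.2% and 17.2% of 8228 genes, and no member was lower at an unadjusted p under 0.05 by edgeR or DESeq2. Ldha had 712, 748, 820.4 and 854 CPM in cycling and 434, 511, 472 and 413 CPM in non-cycling cells, and was higher by 0.76 (SE 0.0796, edgeR adjusted p = 1.3e-05) in 4 of 4 libraries. Pgk1 (0.72), Gapdh (0.60), Pkm (0.54) and Eno1 (0.39) were also higher in 4 of 4 libraries, with some overlap between the classes for Pkm.

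Slc2a1 (0.32, edgeR adjusted p = 0.0427) and Pfkp (0.32, edgeR adjusted p = 0.00944) were also higher in cycling cells in 4 of 4 libraries. Aldoa was at -0.18 and Slc2a3 at -0.05, each above in 1 of 4 libraries, and neither passed edgeR's test. Without miR-146a-/- edgeR called Aldoa lower. The call of Slc2a1 ended without young WT, without miR-146a-/- or without DKO (edgeR adjusted p = 0.0870, 0.291 and 0.0809). Cycling cells were deeper, with median UMIs of 11711, 10735, 11467.5 and 12411.5 against 6370.0, 6382.5, 6509.5 and 5569, and thinned cells gave 5 higher members, without Slc2a1 and Pfkp.

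**Figure D3:**
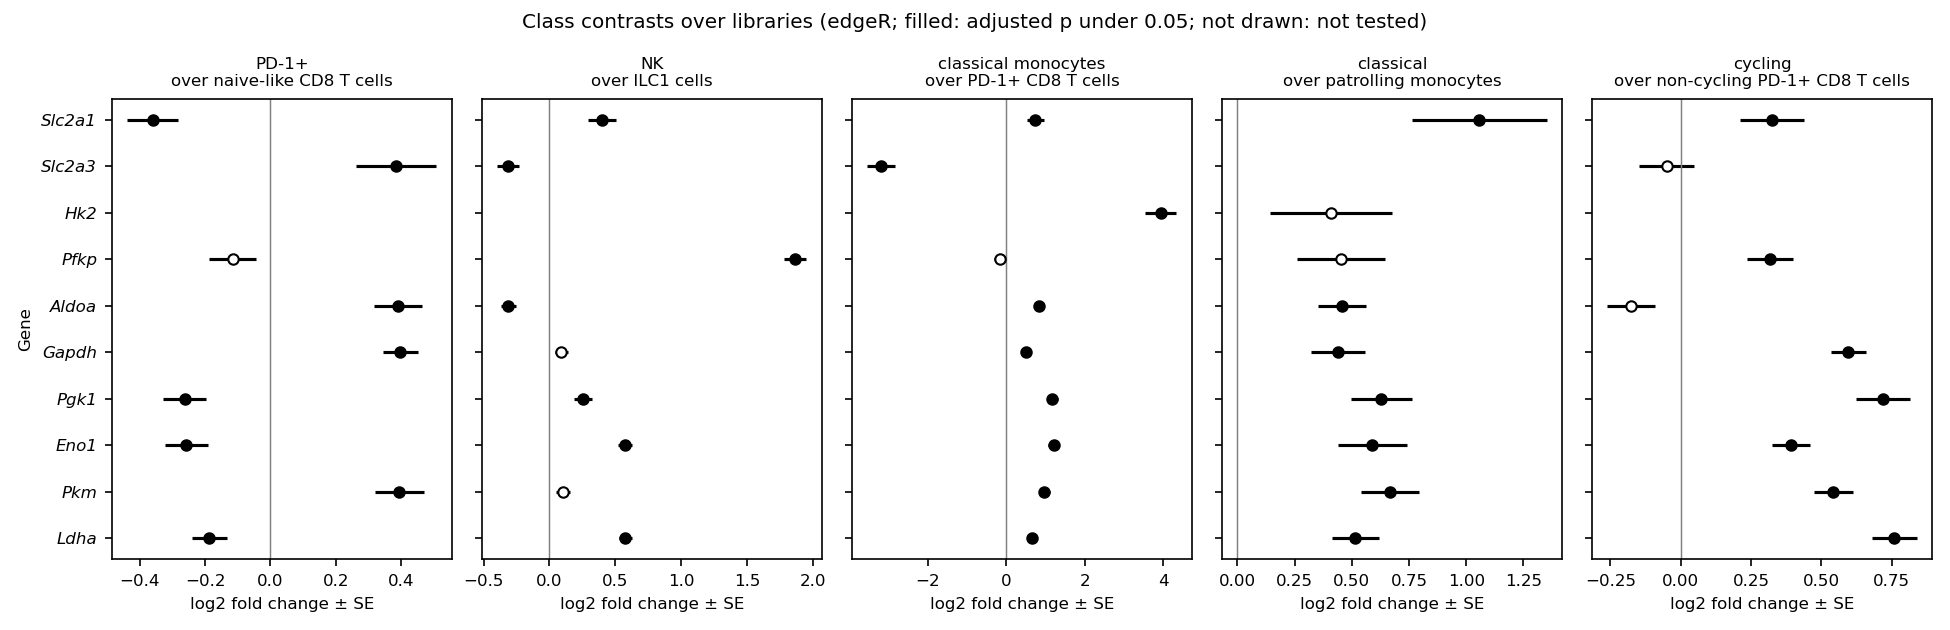
Log2 fold change with its SE (horizontal) of each gene (vertical) in the 5 pairs of classes, with filled points for a Benjamini-Hochberg adjusted p of edgeR under 0.05 and no point where a gene was not tested. The horizontal scales differ between panels, and Pfkp in NK cells over ILC1 stands alone at 1.87.

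Other genes of the pathway took part in some of these differences. Of 34 listed glycolysis and glucose or lactate transport genes outside the 10, 7 of 11 tested were higher and 2 lower in classical monocytes over PD-1+ CD8 T cells, beside 25.9% and 24.1% of all genes. The transporter Slc2a6 was higher by 6.21, the hexokinase Hk3 by 4.97, the regulatory enzyme Pfkfb4 by 4.57 and the lactate exporter Slc16a3 by 4.30 on the log2 scale of edgeR, each in 3 of 3 libraries. In classical over patrolling monocytes 4 of 12 were higher and 3 lower, beside 9.64% and 10.6% of all genes. The largest difference was in Eno3, the muscle enolase, with 11.7 CPM in classical and 446 CPM in patrolling monocytes, lower by 5.23 in 3 of 3 libraries (SE 0.256, edgeR adjusted p = 1.85e-06). Patrolling monocytes thus carried a second enolase transcript that classical monocytes nearly lacked.

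In cycling over non-cycling PD-1+ CD8 T cells 3 of 11 pathway genes were higher and 1 lower, beside 19.2% and 17.2% of all genes. Slc16a3 was higher by 1.47 and Tpi1, triosephosphate isomerase, by 1.32, both in 4 of 4 libraries, and Ldhb, the H subunit of lactate dehydrogenase, was lower by 0.84 in 4 of 4. Between PD-1+ and naive-like CD8 T cells the pathway list gave 3 higher and 3 lower of 11 (19.7% and 20.6% of all genes), with Slc2a8 and Ldhb higher by 1.43 and 1.33 and the lactate carrier Slc16a1 lower by 1.64. Between NK cells and ILC1 it gave 4 higher and 3 lower of 10 (21.5% and 21.2% of all genes), with Slc2a6 higher by 0.87 and Slc2a8 lower by 1.04. Each was called by edgeR and held in 4 of 4 libraries.

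A list of 11 regulators and a list of 13 genes known to respond to hypoxia were counted too, to be read beside the shares of all genes given for each pair. In the order in which the pairs were first described, the regulators had 2 higher and 3 lower of 8, 1 and 4 of 9, 3 and 2 of 9, 1 and 0 of 9, and 1 and 3 of 8. The hypoxia list had 2 and 2 of 6, 2 and 1 of 8, 4 and 1 of 9, 3 and 3 of 9, and 2 and 1 of 7. The shares of all genes in this order were 19.7% and 20.6%, 21.5% and 21.2%, 25.9% and 24.1%, 9.64% and 10.6%, and 19.2% and 17.2%. Myc, an activator of glycolysis genes, was lower by 1.74 in PD-1+ than in naive-like CD8 T cells in 4 of 4 libraries (44.5 against 128 CPM, edgeR). Vegfa was higher by 2.21 and Bnip3 lower by 0.89 in NK cells over ILC1 in 4 of 4 libraries, and Vegfa in NK cells differed between the libraries, at 22.7, 35.8, 3.33 and 4.78 CPM. In classical over patrolling monocytes Bnip3 (1.51, 2 of 3 libraries) and Myc (1.40, 3 of 3) were higher and Mxi1, a repressor of the MYC network, was lower by 1.42 in 3 of 3 libraries. Ankrd37 was higher by 0.87 in cycling cells in 3 of 4 libraries.

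Conditions were compared within 6 classes (PD-1+ CD8 T, conventional CD4 T, NK, B, classical and patrolling monocytes), with 1 library on each side. There is no replicate check and no test, and ratios carry exact binomial intervals. Genes with a mean of at least 20 CPM over both libraries were counted when they passed 1.5-fold, and a member in a class is 1 pair. The comparisons share libraries, so their values are set side by side only.

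Between DEN-CDHFD WT and young WT, which differ in age, DEN and diet together, 2 of 53 pairs were past 1.5-fold upward and 4 downward, beside 6.37% and 8.21% of all gene and class pairs. The median log2 ratio was 0.20 for members and -0.00 for all genes. In the order of the 6 classes above, the median of members was 0.17, 0.25, 0.22, 0.22, -0.28 and 0.21. That of all genes was -0.02, 0.02, -0.01, 0.06, -0.09 and -0.09. Age, DEN and diet cannot be told apart here. Of the 4 downward pairs, 3 (Slc2a1, Hk2 and Pfkp) were in classical monocytes, where young WT had 15 cells and 22.1% of all genes were downward. With the wider monocyte gate 5 pairs were upward and 1 downward.

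In the lower pathway most ratios were small and above 0. Eno1, Pkm, Pgk1 and Ldha were above 0 in 12 of 13 classes, with the interval above 0 in 11, 11, 7 and 9 classes and median log2 ratios of 0.27, 0.28, 0.25 and 0.29, and the interval of Eno1 was below 0 in 1 class. Aldoa and Gapdh were above 0 in 10 of 13 classes, with the interval above 0 in 6 and below 0 in 1 class each and medians of 0.16 and 0.07. The exception was the classical monocyte gate for Eno1 (-0.28), Pkm (-0.09) and Pgk1 (-0.23) and cDC1 for Ldha (-0.04). In that gate the sign of Eno1 turned with strict gates (0.48) and that of Pkm with TMM factors (0.01), and with the wider gate the monocyte ratios were 0.74, 0.79 and 0.44. The sign of Pkm in patrolling monocytes turned with strict gates, at -0.07 against 0.25. Pkm in PD-1+ CD8 T cells had 411, 619.5, 556 and 511 CPM, a ratio of 1.51-fold (1.42 to 1.60) for DEN-CDHFD WT over young WT. With strict gates its log2 ratio was 0.53 against 0.59, which is under 1.5-fold. Eno1 in conventional CD4 T cells had 579.7, 793, 719.9 and 706 CPM, with young WT below the other libraries.

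Over the 11 classes with 50 cells in each library, young WT was the lowest library for Eno1 in 11, Gapdh and Pkm in 10, Pgk1 in 9, and Aldoa and Ldha in 8 classes. The share of all genes with such counts is not given here. The transporters did not follow these enzymes. Slc2a3 was highest in young WT in 7 of 11 classes, and in NK cells it had 61.8, 37.6, 39.6 and 42.8 CPM, a ratio of 0.608-fold (0.501 to 0.734) for DEN-CDHFD WT. PD-1+ CD8 T cells were the only class with the highest value in DEN-CDHFD WT, at 39.4, 54.9, 42.8 and 30.0 CPM. Slc2a1 was highest in DEN-CDHFD WT in 8 of 11 classes, and in patrolling monocytes it had 26.2, 52.6, 26.7 and 25.5 CPM, from 11 and 38 UMIs in the first 2 libraries. Stress genes had 8612 and 8183 CPM there, and erythroid genes 2.38 and 2704 CPM, and the part of neither was tested.

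**Figure D4:**
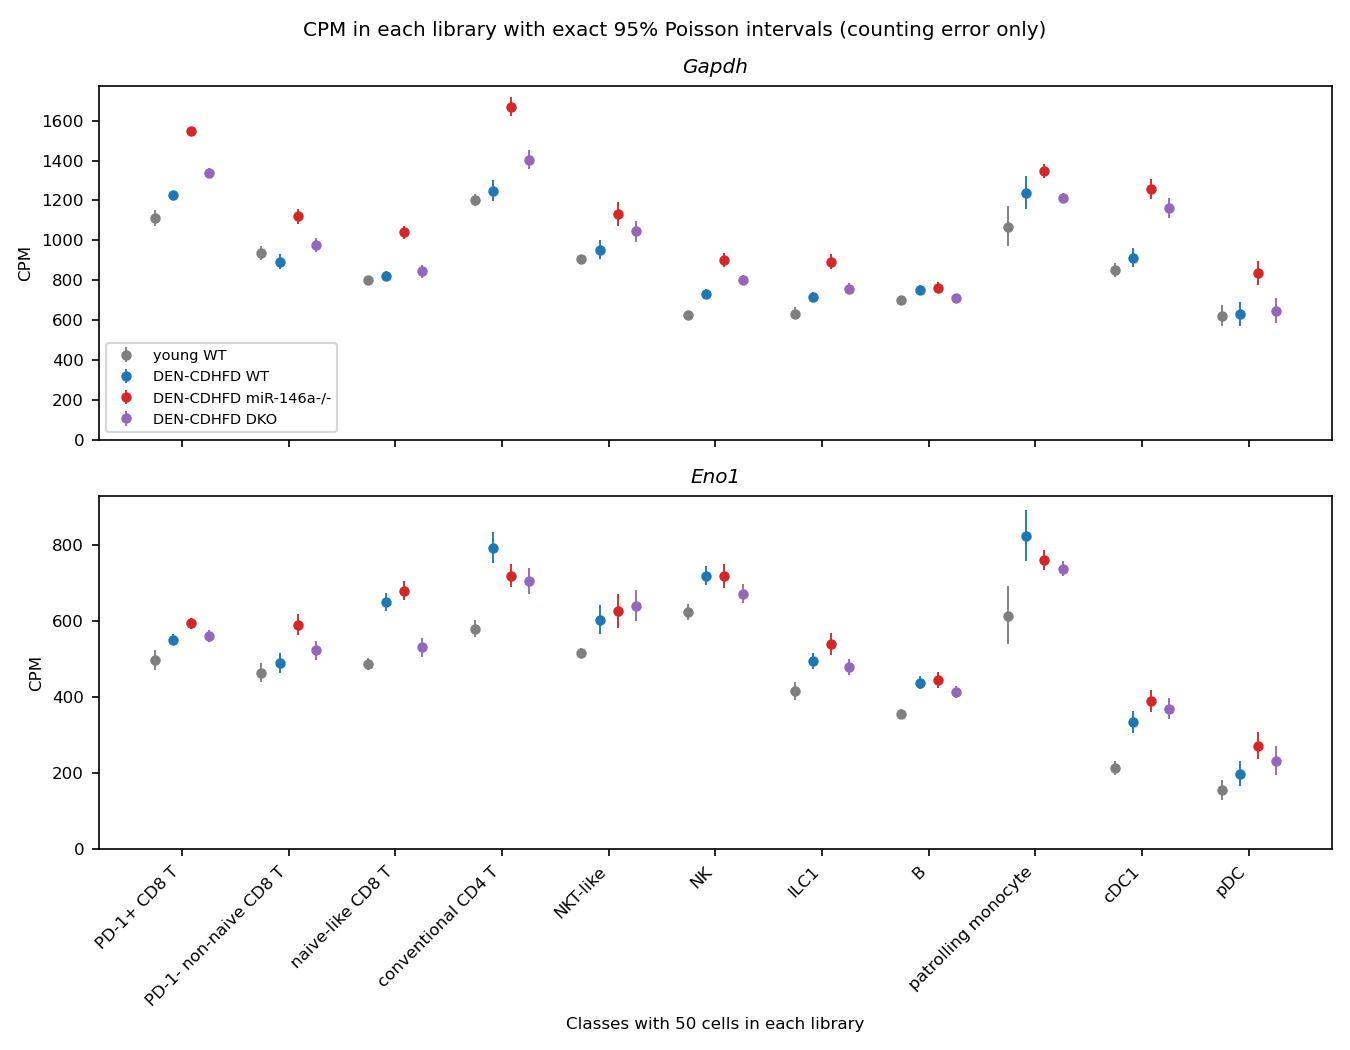
CPM (vertical) of Gapdh and Eno1 in the 11 classes with at least 50 cells in each library (horizontal), 1 point per library with its exact 95% Poisson interval. The miR-146a-/- point of Gapdh is the highest in each class, and the young WT point of Eno1 is the lowest in each class.

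Loss of miR-146a under DEN-CDHFD was compared next. Between miR-146a-/- and DEN-CDHFD WT 2 of 53 pairs were past 1.5-fold upward and 6 downward, beside 6.42% and 7.42% of all pairs, and the median was -0.01 for members and -0.00 for all genes. That median lies over members with ratios on both sides of 0. The upward pairs were Gapdh and Eno1 in classical monocytes, at 1286 and 2150.2 CPM and at 837 and 1455.5 CPM from 43 and 37 cells. In that class 17.1% of all genes were upward, above the pooled share. Stress genes had 9525 and 5981 CPM in these monocytes, and their part was not tested. With the wider gate Gapdh had 1183 and 1835 CPM there (1.55-fold, 1.48 to 1.63) and Eno1 863 and 1224 CPM (1.42-fold).

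The share of all genes on one side in each class is not given here, and among members Gapdh was the only one. In miR-146a-/- it was above DEN-CDHFD WT in 14 of 14 classes, with the interval above 0 in 13 of them and a median log2 ratio of 0.34. The exception was B cells, at 752 and 763 CPM (log2 ratio 0.02, -0.04 to 0.09). In conventional CD4 T cells it had 1202, 1249, 1670.1 and 1403 CPM, and in NK cells 624, 729, 901 and 801 CPM. miR-146a-/- was the highest of the 4 libraries in 11 of 11 classes. None of the scalings or gates tried turned the sign in the 6 classes. The stress sums beside these values were 6592, 5340.4, 2951 and 2863.5 CPM in conventional CD4 T cells and 7125, 6416, 2116 and 2451 CPM in NK cells. Erythroid genes in conventional CD4 T cells had 663, 2.10, 2048 and 10.7 CPM, and the part of neither was tested.

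The downward pairs were Slc2a3 in conventional CD4 T cells, Pfkp in B cells and Slc2a1, Hk2 and Pfkp in patrolling monocytes, besides Hk2 in classical monocytes, whose sign turned with strict gates, from -1.08 to 0.96. The share of all genes downward was 5.1% in conventional CD4 T cells and 4.46% in B cells. It was 13.1% in patrolling and 15.1% in classical monocytes, above the pooled 7.42%. Slc2a3 in conventional CD4 T cells had 41.9, 35.2, 19.3 and 29.5 CPM, beside the erythroid values given above, whose part was not tested. Pfkp in B cells had 50.6, 58.3, 35.8 and 39.6 CPM, a ratio of 0.615-fold (0.503 to 0.747), with both knockout libraries below both WT libraries. In patrolling monocytes Pfkp had 105, 98.2, 64.8 and 52.8 CPM, but with strict gates its sign turned, from -0.61 to 0.08. Slc2a1 in patrolling monocytes went from 52.6 to 26.7 CPM, and in these cells endothelial genes had 54.0 and 300.4 CPM, erythroid genes 2704 and 2.81 CPM and stress genes 8183 and 2895.5 CPM. Their part in the 3 patrolling monocyte pairs was not tested. Over 14 classes Slc2a1 was above DEN-CDHFD WT in 3, with the interval below 0 in 6 and a median of -0.32. Ldha was below DEN-CDHFD WT by 0.20 in PD-1+ CD8 T cells, 0.26 in conventional CD4 T cells and 0.35 in B cells, and above it by 0.57 in cDC1.

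Hk2, the listed gene with a miR-146a seed match, can be followed only in myeloid classes, since it was close to 0 in the lymphoid classes and pDC. It had 31.0, 27.7, 17.5 and 19.9 CPM in patrolling monocytes, 31.6, 36.0, 37.0 and 32.6 CPM in C1q-high macrophages and 35.9, 27.7, 20.2 and 26.3 CPM in cDC1. In cDC2 it had 25.5 to 42.8 CPM over 3 libraries. In classical monocytes the log2 ratio of miR-146a-/- over DEN-CDHFD WT was -1.08, and 0.96 with strict gates. No interval of this comparison lay above or below 0 for Hk2 in any of 14 classes.

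Loss of Ccl5 on the miR-146a-/- background was compared last. Between DKO and miR-146a-/- 1 of 52 pairs was past 1.5-fold upward and 0 downward, beside 2.69% and 2.74% of all pairs. The upward pair was Slc2a3 in conventional CD4 T cells, at 19.3 and 29.5 CPM (1.53-fold, 1.06 to 2.20), which was under 1.5-fold with TMM factors. In that class 2.08% of all genes were upward. Erythroid genes had 2048 and 10.7 CPM in these cells, and their part was not tested. The median was -0.06 for members and -0.01 for all genes. In the order of the 6 classes given first, the median of members was -0.08, -0.03, -0.08, -0.06, 0.03 and -0.06. That of all genes was 0.01, 0.03, 0.01, -0.13, -0.04 and 0.01.

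The share of all genes on one side is not given here either, and Gapdh was again the only member on one side in each class. In DKO it was below miR-146a-/- in 16 of 16 classes with each interval below 0, and the median log2 ratio was -0.21, against -0.24 for Pfkp. It had 1547 and 1339 CPM in PD-1+ CD8 T cells, 901 and 801 CPM in NK cells and 1891 and 1621 CPM in C1q-high macrophages. In B cells, where the median of all genes was -0.13 on total UMIs, its sign turned with TMM factors, from -0.10 to 0.04. Eno1 was below in 13 of 16 classes (interval below 0 in 9 and above 0 in 1, cDC2) and so were Pfkp and Pkm (interval below 0 in 5 each). In B cells the signs of Eno1 and Pkm turned with TMM factors as well. With the mean over cells, the sign of Pfkp turned in NK cells and classical monocytes and that of Pkm in patrolling monocytes. Slc2a3 in PD-1+ CD8 T cells had 42.8 and 30.0 CPM, a log2 ratio of -0.51 (-0.73 to -0.30), and NK-cell genes in this class summed to 3805 and 1855 CPM, whose part was not tested.

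**Figure D5:**
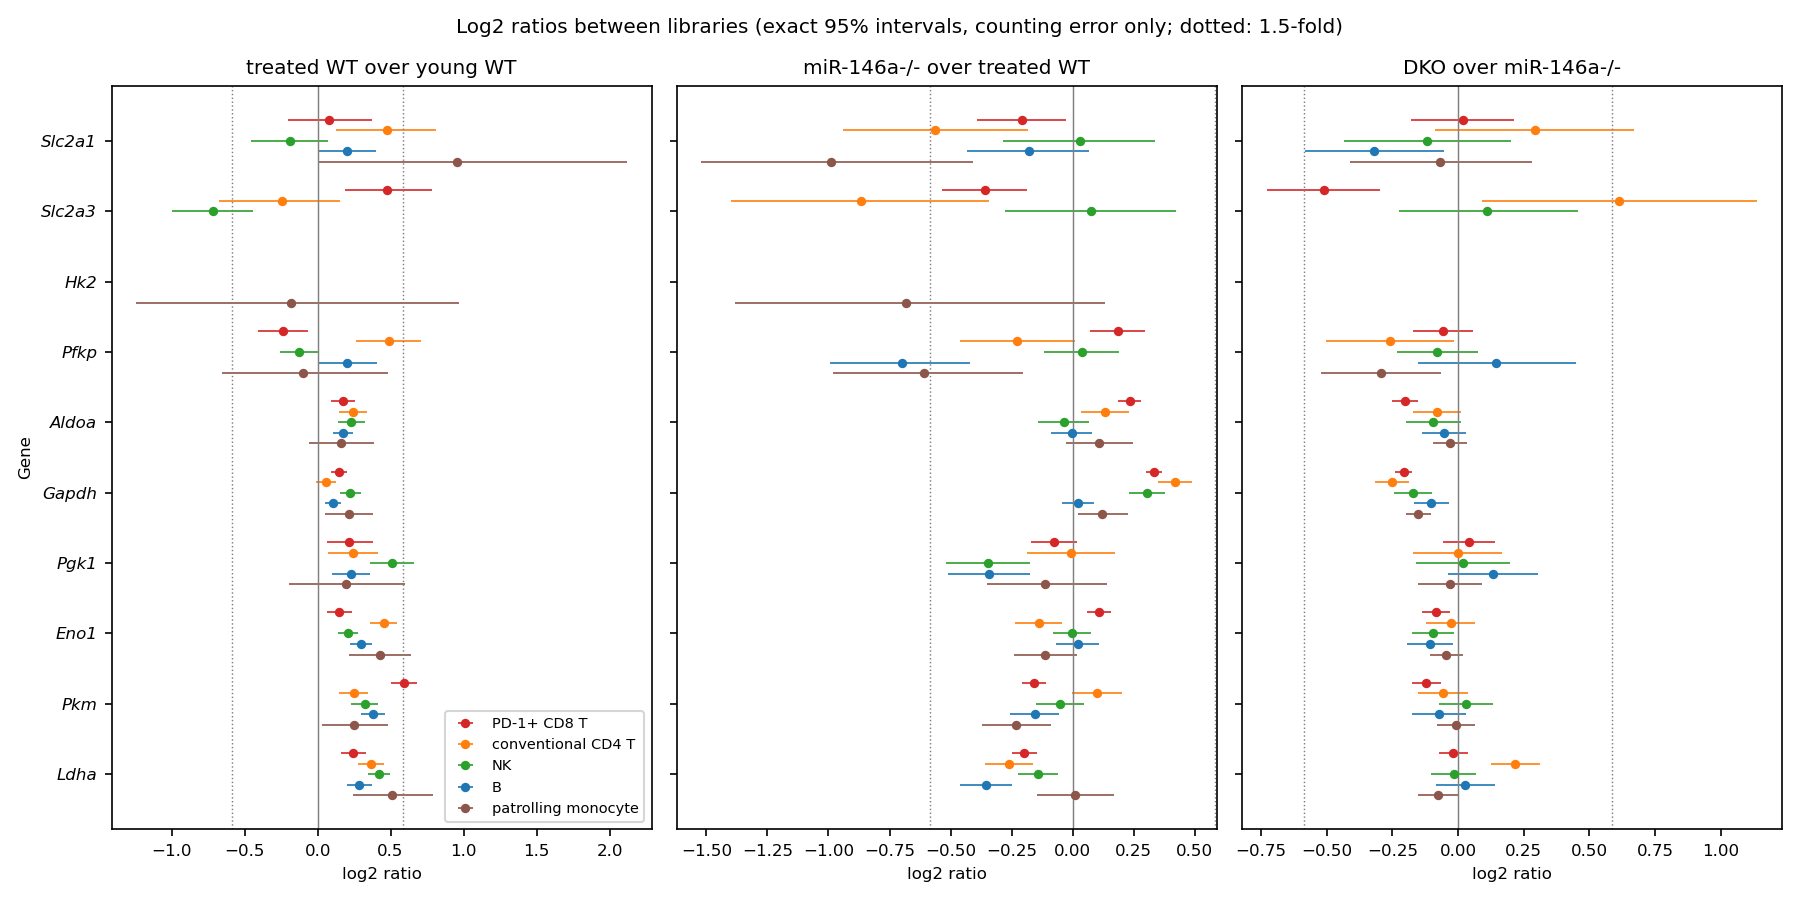
Log2 ratio between 2 libraries (horizontal) of each gene (vertical) in 5 classes, as points with exact 95% intervals for counting error, with dotted lines at 1.5-fold. Gapdh lies to the right of 0 for miR-146a-/- over DEN-CDHFD WT and to the left for DKO over miR-146a-/- in each class drawn.

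The listed pathway, regulator and hypoxia genes were counted by the same rule, beside the shares of all pairs given above for each comparison (6.37% and 8.21%, 6.42% and 7.42%, and 2.69% and 2.74%). For DEN-CDHFD WT over young WT, 5 pathway pairs of 48 were upward and 5 downward, with 4 and 4 of 40 for regulators and 4 and 7 of 40 for hypoxia genes. For miR-146a-/- over DEN-CDHFD WT they were 5 and 2 of 50, 1 and 7 of 40, and 9 and 4 of 40. For DKO over miR-146a-/- they were 0 and 3 of 48, 2 and 0 of 43, and 2 and 3 of 39. Among pairs with a mean of at least 20 CPM, the hypoxia genes with the largest ratios for miR-146a-/- over DEN-CDHFD WT were in classical monocytes, with 5 and 31 UMIs of Ndrg1, 10 and 44 of Ankrd37 and 11 and 28 of Bnip3. Their log2 ratios were 2.61 (1.35 to 4.45), 2.18 (1.22 to 3.39) and 1.41 (0.39 to 2.60). These come from 43 and 37 cells, in which stress genes had 9525 and 5981 CPM, and the part of stress was not tested. By the same rule 17.1% of all genes were upward in that class. Vegfa was under this limit and went the other way, with 162 and 10 UMIs in NK cells and 19 and 7 UMIs in patrolling monocytes. Bpgm, the bisphosphoglycerate mutase of red cells, was 2.87-fold (2.03 to 4.23) above DEN-CDHFD WT in conventional CD4 T cells, where erythroid genes had 2.10 and 2048 CPM, and their part was not tested.

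For DEN-CDHFD WT over young WT the largest ratios within the same limit included those of Ndrg1 (-1.65, -3.72 to 0.31), Bnip3 (-1.28, -2.64 to 0.12) and Txnip (-1.21, -1.67 to -0.74), an inhibitor of glucose uptake, in classical monocytes. Kdm3a in patrolling monocytes (1.32, 0.26 to 2.70) lay between Ndrg1 and Bnip3 in absolute size. The intervals of Ndrg1 and Bnip3 included 0. Under the limit, Epas1 in PD-1+ CD8 T cells had 4.62 and 17.0 CPM from 13 and 190 UMIs. For DKO over miR-146a-/- the largest within the limit were Arrdc4 (1.37, 0.15 to 3.02), Ddit4 (1.22, 0.14 to 2.62), Pfkfb4 (-0.97, -2.07 to 0.10) and Ankrd37 (-0.96, -1.63 to -0.30), all in classical monocytes.

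Genes with the most similar levels were looked up for each member by Pearson's r of log2(CPM + 1) over 58 sums of class and library, among 3344 genes with a mean of at least 50 CPM. The sums share libraries and cells of related classes, so r describes them and carries no p. Tecr (0.92) and Rac2 (0.89) were nearest to Slc2a3, Pnp (0.91) and Rab32 (0.91) to Hk2, Cfl1 (0.87) and Arf5 (0.81) to Ldha. Tpi1 was nearest to both Pgk1 (0.83) and Pkm (0.83), followed by Aprt (0.78) and Rac1 (0.83). Aprt was nearest to Aldoa (0.83), Gapdh (0.80) and Eno1 (0.80), followed by Mapkapk3 (0.74), Cox6b1 (0.76) and Gmfg (0.79). Slc2a1 had weaker neighbours, Cd84 (0.75) and the stress gene Junb (0.72), and Pfkp had Wdr1 (0.76) and Timm23 (0.74).

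With 1 library per condition, differences between conditions cannot be told apart from differences between libraries. The classical monocyte gate rests on few cells in each library. The gates hold 23131 of 36286 kept cells, and since classes are defined by marker UMIs, deeper cells pass more easily. CPM of one gene depends on the other transcripts of the cells, and neither protein, enzyme activity nor metabolites were measured.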

How the data were processed

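Per the labels, liver immune cells were captured in 4 libraries, and the paper states that CD45 was used to sort them. The authors deposited unscaled UMI counts for every gene in each cell, made with Cell Ranger 7.0.1 per the file headers and aligned to mm10 per the submitters' processing notes. No normalized values were used. Cells with 600 to 6000 genes and at most 5% mitochondrial UMIs were kept and placed in 19 classes by gates on marker UMIs. No doublet caller was run. The gates limit markers of other lineages, and cells passing more than 1 gate were left out. The members and lists were chosen with earlier results of these data known.

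UMIs were summed per class and library. Pairs of classes (at least 20 cells in a sum) were tested in R 4.3.3 with edgeR 4.0.16 (quasi-likelihood test, TMM, library as block, mean CPM of at least 10, Benjamini-Hochberg adjusted p under 0.05), a script tested on simulated data. Conditions were compared without a test, as ratios with 0.5 UMIs added to each sum. Intervals are exact 95% Poisson or Clopper-Pearson intervals (Python 3.11.15, numpy 2.4.6, scipy 1.17.1, pandas 2.3.3). Shares used cells thinned to 2000 UMIs. The text names all 10 members, the 4 genes with the largest absolute log2 ratio among the pathway, regulator and hypoxia lists in each comparison, and the 2 genes most like each member. Epas1, and Vegfa between conditions, are named outside this rule and lie under the limit of 20 CPM. Genes of the hepatocyte, endothelial, erythroid, platelet, dissociation stress, T-cell, B-cell, NK-cell, monocyte and macrophage, and neutrophil lists were summed. In monocyte and macrophage markers the classical monocytes had 19246, 10689, 17948 and 16077 CPM and NK cells at most 44.6 CPM.

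Alternatives were DESeq2 1.42.0, no library term, no filter on low counts, total UMIs or TMM factors, strict gates, a mitochondrial limit of 10%, the mean over cells, 2-fold, no thinning and each library left out. Sums of thinned cells, a wider classical monocyte gate and a neutrophil gate without Csf3r were added after seeing the data.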

Additional observations from a re-analysis of the deposited data

How the results depend on the processing

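With DESeq2, NK cells over ILC1 had 3 members higher and 1 lower, and classical over patrolling monocytes 4 higher. Without the library term, 1 member was lower in PD-1+ than in naive-like CD8 T cells, 1 lower in NK cells and 3 higher in classical over patrolling monocytes. Without the filter on low counts, 2 were lower in PD-1+ and 1 in cycling cells, and the pairs past 1.5-fold were 5 upward for DEN-CDHFD WT over young WT, 11 downward for miR-146a-/- over DEN-CDHFD WT, and 4 upward and 1 downward for DKO over miR-146a-/-. With total UMIs in place of TMM factors, 0 members were lower in PD-1+ cells and Pfkp reversed to 0.0585.

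With thinned cells, 1 member was lower in NK cells, where Gapdh reversed to -0.0248, and 5 and 3 were higher in classical monocytes over PD-1+ CD8 T cells and over patrolling monocytes. Hk2 reversed to -0.51 in the latter pair and to -0.43 with strict gates, which left 2 libraries and 1 higher member there. Strict gates gave 3 pairs downward for miR-146a-/- over DEN-CDHFD WT, and 2 upward and 2 downward for DKO over miR-146a-/-. With the wider monocyte gate, 4 members were higher in classical over patrolling monocytes, with 5 pairs upward and 1 downward for DEN-CDHFD WT over young WT and 1 upward for miR-146a-/- over DEN-CDHFD WT.

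At 2-fold, 0 pairs were upward in each comparison of conditions, and 1 downward for DEN-CDHFD WT over young WT and for miR-146a-/- over DEN-CDHFD WT. The mean over cells gave 1 pair upward for miR-146a-/- over DEN-CDHFD WT and 2 for DKO over miR-146a-/-, the mitochondrial limit of 10% gave 2 and TMM factors 0 for the latter.

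With each library left out, 1 to 4 members were lower in PD-1+ over naive-like CD8 T cells, 1 to 2 lower in NK cells over ILC1, 0 to 8 higher in classical over patrolling monocytes and 0 to 1 lower in cycling cells. The cause was not tested.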
